A study of Mus musculus with 10 samples.

Results

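Oxidative phosphorylation was examined as 101 protein-coding genes in mouse liver cells labelled as EP300 knockout or control. Members were taken by symbol: all genes beginning mt-, Nduf, Uqcr, Atp5 or Cox4 to Cox8, and Sdha, Sdhb, Sdhc, Sdhd and Cyc1. A member also had at least 10 counts in at least 2 libraries. This left 101 of 108 candidates, out of 55385 genes in the count table, with 13 genes of the mitochondrial genome and 88 nuclear genes, and all 101 were among the 14200 genes tested. Cox7a1 lay just inside the count limit, with 14 and 11 counts in the WT-labelled libraries and 8 and 10 in the KO-labelled libraries. Cox6b2 lay just outside it, with 3 and 1 counts against 4 and 2.

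All 4 libraries came from EP300 f/f mice (strain C57BL/6J 129SV), in which the gene of EP300, a histone acetyltransferase and transcriptional coactivator, is flanked by recombination sites. All mice were fed DDC, a liver toxicant, and received pT3-cMet plasmid, which carries the receptor tyrosine kinase gene cMet, by hydrodynamic tail vein injection; treatment lasted 5 months. KO mice (genotype label EP300-/-, 2 libraries) received the virus AAV-TBG-Cre, whose promoter directs Cre to hepatocytes, and control mice (label EP300f/f, here WT, 2 libraries) received AAV-TBG-GFP. Cells of perfused liver were sorted before RNA extraction, and the tissue label is hepatocyte. The titles of all 4 libraries begin with HCC (hepatocellular carcinoma), and the share of tumour cells was not measured here. Pooled sequencing is mentioned, ages are not, and no label says which animals a library came from. P-values therefore cover the spread between libraries alone, and that spread may be technical.

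Total counts were 18575701 and 18831671 in WT and 17709799 and 17811489 in KO. Ep300 itself was not lower in the KO-labelled libraries: CPM (each count relative to its TMM-scaled library total) were 62.4 and 57.9 in WT and 73.7 and 72.3 in KO, which is a difference of 0.28 on the log2 scale (SE 0.07, adjusted p = 0.00498 in edgeR). Counts over the whole gene need not fall when a floxed exon is lost, and exons were not counted apart here, so each direction below is a difference between libraries labelled KO and libraries labelled WT. Xist, expressed from an inactive X chromosome, had 3 and 2 counts in WT and 2310 and 1411 in KO, while 4 Y-linked genes had at least 194 counts in every library. The labels give no sex, and this difference cannot be told apart from the genotype label. Hepatocyte markers dominated all 4 libraries, with summed CPM of 107400 to 115000 over 11 genes.

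The respiratory chain passes electrons from NADH through complex I, and from succinate through complex II, to ubiquinone, then through complex III and cytochrome c to complex IV, which reduces oxygen. Complexes I, III and IV pump protons across the inner mitochondrial membrane, and complex V, the ATP synthase, uses their return to make ATP. Complexes I, III, IV and V are assembled from subunits encoded in both the nuclear and the mitochondrial genome, whereas all complex II subunits are nuclear. The mitochondrial genome is transcribed as long precursors that are cut into shorter RNAs, so its mRNA levels reflect processing and stability as well as transcription.

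Nuclear genes of the chain carry recognised promoter motifs, and the stretches below are shown because they hold them in members that rose and members that did not pass the test. They come from RefSeq's mouse promoter table (GRCm38.p6, 250 bases before to 50 after the start site), are written 5′ to 3′ on the gene's strand, and have each match to the NRF1, ETS or ERRA motif in capitals. Matches past the start site or inside the annotated gene are left out of the stretches. NRF1 is a nuclear respiratory factor, ETS stands for the GABPA family and ERRA for an oestrogen-related receptor.
Sdha, chr13:74350281-74350358, minus strand, rose: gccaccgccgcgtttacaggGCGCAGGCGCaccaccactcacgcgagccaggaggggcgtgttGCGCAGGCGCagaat
Sdhd, chr9:50603899-50603948, minus strand, rose: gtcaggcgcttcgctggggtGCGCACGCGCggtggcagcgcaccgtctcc
Cox6a1, chr5:115349046-115349140, minus strand, rose: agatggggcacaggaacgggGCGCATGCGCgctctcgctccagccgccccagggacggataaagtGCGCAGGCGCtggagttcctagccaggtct
Ndufs5, chr4:123718255-123718304, minus strand, rose: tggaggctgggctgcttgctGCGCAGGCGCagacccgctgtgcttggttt
Atp5h, chr11:115420031-115420080, minus strand, rose: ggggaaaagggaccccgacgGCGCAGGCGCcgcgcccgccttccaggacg
Atp5g3, chr2:73911350-73911398, minus strand, rose: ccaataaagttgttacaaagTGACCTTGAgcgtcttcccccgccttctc
Ndufb4, chr16:37654530-37654579, minus strand, not called: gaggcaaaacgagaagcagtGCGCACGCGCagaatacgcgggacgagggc
Uqcrh, chr4:116075072-116075101, minus strand, not called: gactacgaggagtatgccgcACTTCCGGcc

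The motifs searched, on both strands and over the whole promoter window, were GCGCA followed by any base and GCGC (NRF1), CCGGAAGT (ETS), TCAAGGTCA (ERRA) and AAGATGGCG (YY1, a zinc finger factor). Promoters were found for 73 of the 88 nuclear members, 2 of them through another symbol, which gave 78 promoters. NRF1 matched in 20 of these 78 promoters (25.6%), against 9.24% of the promoters of tested genes and 4.60% of all promoters in the table. YY1 matched in 10.3% of member promoters, against 2.82% and 1.40%. ETS matched in 6.41%, against 7.51% and 3.89%. ERRA matched in 2 member promoters, those of Atp5g3 and Sdhd (2.56%, against 0.276% and 0.423%), and the Sdhd match lies outside the stretch shown. Also outside the stretches lie 1 NRF1 match of Atp5g3, 1 ETS match of Atp5h and part of the 3 NRF1 matches each of Sdha and Ndufb4. A match is a description of letters and not a binding site. Of the 19 members with an NRF1 match 11 rose, with a median log2 fold change of 0.27, and of the 54 without it 31 rose, with a median of 0.26.

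Most nuclear-encoded members were higher in the KO-labelled libraries, by small and similar amounts. Of the 88, 51 rose and 1 fell at an edgeR adjusted p below 0.05, and over the whole table, by comparison, 16.7% of tested genes rose and 17.5% fell, or 34.2% in either direction. The 76 structural subunits among them had 49 that rose and 0 that fell, a median log2 fold change of 0.26, and 71 positive values, while the median over all tested genes was -0.01. CPM in both KO libraries exceeded both WT libraries for 63 of the 76 and lay below both for 2; over all tested genes these shares were 32.9% and 33.5%. The interquartile range of log2 fold changes was 0.20 among nuclear members and 0.50 among all genes. Those genes were not matched to the members for expression level. Because well-expressed genes are called more often, the share was also taken among genes with a mean of at least 20 CPM: 50 of 74 nuclear members rose (67.6%) and 1 fell, against 27.3% and 20.9% of such genes in the table.

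The calls depended on the libraries, most on those of WT. Without WT replicate 1, 29 of the 60 called members were called, and without WT replicate 2, 33 of the 60, with 1 WT library left in each case. Without KO replicate 2, 54 of the 60 were called, and without KO replicate 1 all 60. The calls over all genes, in the settings without a WT library, went from 4851 to 2602 and 2306. Of the genes described below, Sdha, Sdhb, Cyc1, Uqcrc2, Ndufa9, Ndufb5, Cox7b, Cox5b, Atp5a1, Atp5f1, mt-Co1, mt-Atp8 and mt-Nd4l were called whichever library was left out. Without WT replicate 1 the calls of Atp5o, Ndufs5 and mt-Cytb were lost, and without WT replicate 2 those of Sdhc and Cox7a2l. Those of Sdhd, Uqcrc1, Cox6a1, Cox7a2, Cox8a, Ndufa4, Ndufaf1, Ndufaf4, mt-Nd2, mt-Nd4 and mt-Nd5 were lost without either, and those of Cox7a2, Cox8a and Ndufa4 also without KO replicate 2. With 2 residual degrees of freedom and a fold change under 1.5 for nearly all members, counts of calls are less stable here than medians: the median of the nuclear subunits stayed between 0.24 and 0.31 whichever library was left out. Only Cyc1 rose by at least 1.5-fold, a size at which 6.3% of tested genes rose.

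**Figure D1:**
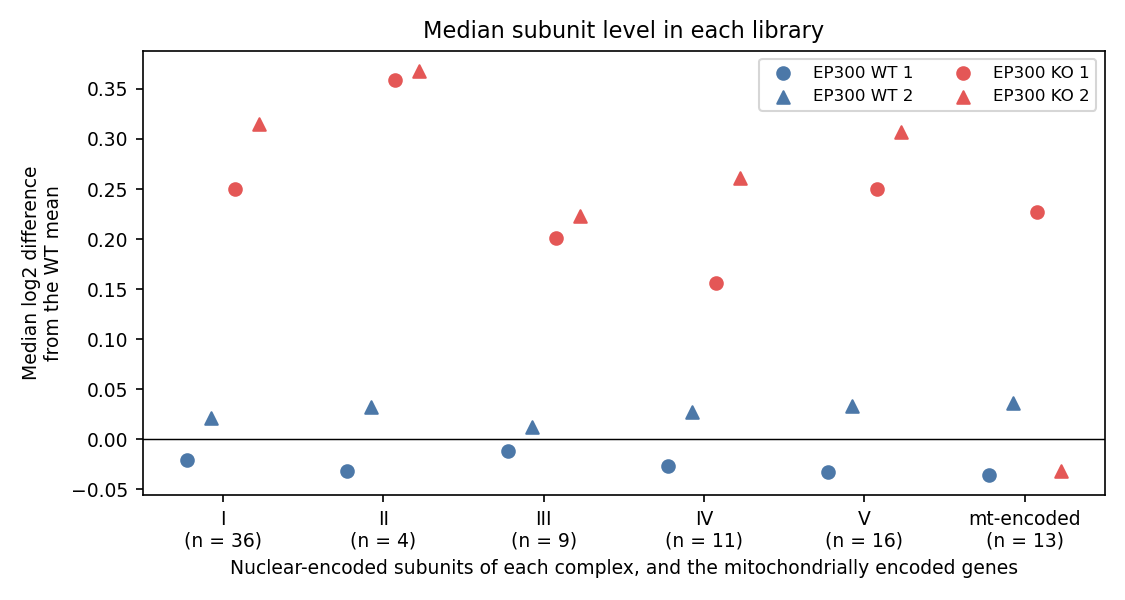
Median log2 difference of each complex's nuclear-encoded subunits from their own WT mean (y axis, log2 units), in each library (circles replicate 1, triangles replicate 2; blue WT, red KO), with the 13 mitochondrially encoded genes at the right. For all 5 complexes both KO libraries lie above both WT libraries, from 0.156 to 0.368, whereas the mitochondrially encoded genes are at 0.227 in KO replicate 1 and -0.032 in KO replicate 2.

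Complex I takes electrons from NADH and has the most subunits. Of its 36 nuclear subunits 21 rose and 0 fell, with a median log2 fold change of 0.28. All 7 core subunits, among them those that carry the flavin and the iron-sulphur clusters, rose, with a median of 0.35. Among the 29 accessory subunits 14 rose, with a median of 0.22; the difference between core and accessory was not tested.

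In complex I the largest rise was that of Ndufa9, an accessory subunit of the matrix arm near the ubiquinone site (chr6:126821721-126849136, GENCODE M21 on GRCm38). Its CPM were 55.4 and 54.5 in WT and 77.7 and 76.1 in KO, a log2 fold change of 0.49 (SE 0.07, adjusted p = 3.36e-05). Ndufs5, the accessory subunit whose NRF1 match is shown above, had 19.2 and 23.4 CPM in WT and 29.6 and 29.7 in KO, a log2 fold change of 0.48 (SE 0.10, adjusted p = 0.00159). For both genes the KO libraries lay above the WT libraries. Ndufb5, an accessory subunit of the membrane arm, rose by 0.46, and among the core subunits Ndufv1, which binds NADH and the flavin, rose by 0.45, from 102.3 and 100.8 CPM to 137.9 and 139.7. The lowest values among its nuclear subunits were those of the accessory subunits Ndufa7 (-0.18, adjusted p = 0.0901) and Ndufa8 (-0.10, adjusted p = 0.316).

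The 8 assembly factors named Ndufaf, which build complex I and then leave it, were expressed at lower levels than the subunits. Their median was 3.99 to 5.31 CPM per kilobase of exon in the 4 libraries, against 24.3 to 31.8 for the complex I subunits. Ndufaf4 rose by 0.44 (17.2 and 18.9 CPM in WT, 27.1 and 21.8 in KO, SE 0.11, adjusted p = 0.00612) and Ndufaf1 by 0.42 (SE 0.12, adjusted p = 0.0110). The other 6 did not pass, with log2 fold changes from 0.00 to 0.50. The 2 that rose are 25% of the 8, beside 16.7% of all tested genes.

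Complex II, succinate dehydrogenase, links the chain to the tricarboxylic acid cycle, and all 4 of its subunits rose, with a median log2 fold change of 0.36. Sdha, the flavoprotein that oxidises succinate (chr13:74322254-74350280), had 307.1 and 329.5 CPM in WT and 483.6 and 467.0 in KO. This was a log2 fold change of 0.58 (SE 0.06, adjusted p = 9.79e-07), and the groups did not overlap. Sdhb, the iron-sulphur subunit, had 98.9 and 111.8 CPM in WT and 139.9 and 137.8 in KO, a log2 fold change of 0.40 (SE 0.07, adjusted p = 0.000256). The membrane anchors rose less: Sdhc by 0.33 (SE 0.06, adjusted p = 0.000707) and Sdhd by 0.21 (SE 0.06, adjusted p = 0.0134). The order of the 4 genes is given as measured, and the differences between them were not tested.

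Complex III passes electrons from ubiquinol to cytochrome c. Its 9 nuclear subunits had 6 that rose and 0 that fell, with a median of 0.19. The 4 larger ones (the catalytic subunits Cyc1 and Uqcrfs1 and the core proteins Uqcrc1 and Uqcrc2) all rose, with a median of 0.34, whereas 2 of the 5 small accessory subunits rose, with a median of 0.11. Cyc1, cytochrome c1 (chr15:76343523-76346260), had the largest rise of all 101 members: 138.4 and 140.7 CPM in WT and 209.3 and 215.8 in KO, a log2 fold change of 0.61 (SE 0.06, adjusted p = 6.65e-07). Uqcrc2 rose by 0.39 and Uqcrc1 by 0.28, and 19.7% of the exon bases of Uqcrc2 overlap another gene. Uqcr10 and Uqcrq, small subunits of the membrane part, had log2 fold changes of -0.05 and -0.02, with adjusted p of 0.610 and 0.829.

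Complex IV, cytochrome c oxidase, reduces oxygen. Of its 11 nuclear subunits 7 rose and 0 fell, with a median of 0.20, and in all 11 both KO libraries lay above both WT libraries. Cox7b, a small subunit needed for assembly (chrX:106015700-106022450), had 64.2 and 66.4 CPM in WT and 88.0 and 91.9 in KO, a log2 fold change of 0.46 (SE 0.07, adjusted p = 4.48e-05). Cox7b lies on the X chromosome, as do the complex I subunits Ndufa1 and Ndufb11; all 3 rose, while of 421 X-linked genes tested 53 rose and 93 fell. Cox5b, a zinc-binding subunit, rose by 0.38 (SE 0.06, adjusted p = 0.000159), from 94.4 and 99.1 CPM to 124.7 and 127.9.

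Several complex IV subunits exist as tissue isoforms, and the libraries held the widely expressed or liver forms. Cox4i1 had 231.8 and 253.2 CPM in WT and 256.0 and 277.9 in KO (log2 fold change 0.14, adjusted p = 0.110), while Cox4i2, the lung and hypoxia form, had 0, 0, 1 and 3 counts. Cox6a1 rose by 0.20 (SE 0.06, adjusted p = 0.0116), and its muscle form Cox6a2 had at most 2 counts in a library. Cox8a rose by 0.20, with Cox8b at 0 to 2 counts. Cox6b1 stood at a log2 fold change of 0.19 (adjusted p = 0.0646) and Ndufa4, now counted as a complex IV subunit, rose by 0.23, whereas Ndufa4l2, its hypoxia-induced relative, had 0.52 to 1.51 CPM and was not called.

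The Cox7a genes parted in direction. Cox7a2, the liver isoform of the subunit, rose by 0.26 (SE 0.08, adjusted p = 0.0242), with 39.5 and 41.8 CPM in WT and 45.3 and 51.96 in KO. Cox7a2l is a related protein described as joining complexes III and IV into supercomplexes, and its activity in these mice was not examined. The gene (chr17:83501918-83517330) had 107.5 and 115.0 CPM in WT and 82.0 and 87.8 in KO, a log2 fold change of -0.39 (SE 0.07, adjusted p = 0.000260). It was the only nuclear member that fell, its KO libraries lay below both WT libraries, and without WT replicate 2 it was not called. The heart and muscle isoform Cox7a1 had at most 0.74 CPM and was not called.

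Complex V had 11 of 16 nuclear subunits that rose and 0 that fell, with a median of 0.29. In the catalytic F1 part 4 of 5 rose. Atp5a1, the alpha subunit, had 630.6 and 615.5 CPM in WT and 891.7 and 870.4 in KO, a log2 fold change of 0.50 (SE 0.05, adjusted p = 1.51e-06). Atp5b, the catalytic beta subunit, rose by 0.27 (SE 0.05, adjusted p = 0.000456). In the membrane part and its stalk 7 of 11 rose; Atp5f1, the b subunit of the stalk, had 154.2 and 145.9 CPM in WT and 193.1 and 195.5 in KO, a log2 fold change of 0.37 (SE 0.06, adjusted p = 0.000140). Atp5o, the subunit that ties the stalk to F1, rose by 0.33 (SE 0.08, adjusted p = 0.00441), and 47.9% of its exon bases overlap another gene.

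Subunit c, which forms the rotating ring, is encoded by 3 genes whose mature proteins are the same. Atp5g1 rose by 0.31 (SE 0.07, adjusted p = 0.00229) and Atp5g3 by 0.30 (SE 0.06, adjusted p = 0.000645), whereas Atp5g2 had a log2 fold change of -0.16 (SE 0.08, adjusted p = 0.170), with 56.5 and 67.0 CPM in WT and 53.0 and 57.7 in KO. Per kilobase of exon, Atp5g2 made up 27.9% and 30.9% of the summed CPM of the 3 genes in WT and 22.4% and 24.1% in KO. The size of this share depends on the merged exon lengths, which were 4912 bases for Atp5g1, 1675 for Atp5g2 and 2181 for Atp5g3. The share of Atp5g2 was lower in both KO libraries, and the difference was not tested.

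**Figure D2:**
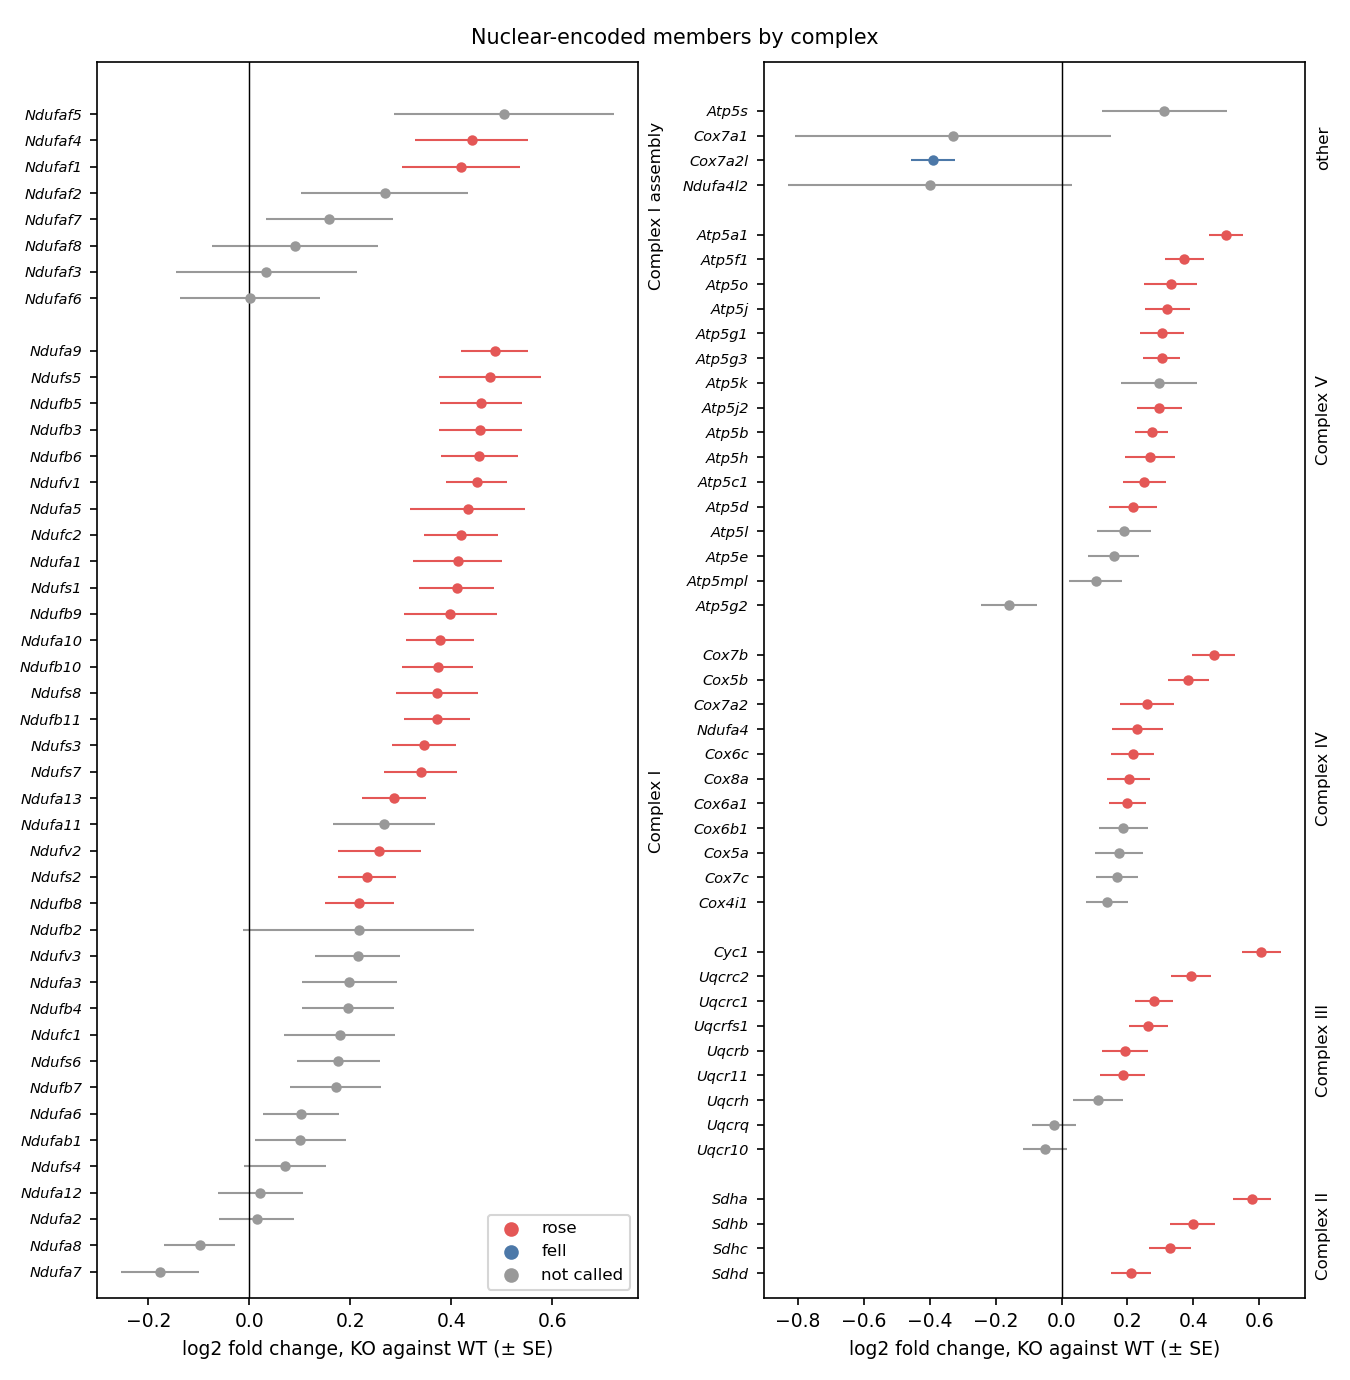
Log2 fold change (x axis, KO against WT, bars ± SE) of each of the 88 nuclear-encoded members, grouped by complex; red rose, blue fell and grey did not pass an adjusted p of 0.05. Values crowd between 0 and 0.61, all 4 complex II subunits are red, and Cox7a2l at -0.39 is the only blue point.

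Part of the nuclear members share sequence with other annotated genes, and the sources used here do not say how reads with several matches were handled. Of 50-base windows, 84.8% in Atp5l, 50.3% in Atp5o, 47.9% in Atp5h and 43.4% in Uqcrb also occur in another annotated transcript. Other members described above share windows too, for instance Atp5f1 (38.7%), Ndufs5 (31.1%), Cox5b (25.9%), Uqcrc2 (24.8%) and Cox7a2l (17.7%). The 54 nuclear members that share under 5% of their windows had 31 that rose and 0 that fell, with a median of 0.26. The kit was taken not to mark strand, and the strand setting of the counts is not given. Reads over the exons that Ndufaf2 (65.6% of its exon bases), Ndufb6 (39.0%) and Ndufa13 (30.0%) share with other genes may therefore not be assignable to 1 of them.

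The 13 mitochondrially encoded subunits did not move as 1 group. Of all tested genes 16.7% rose and 17.5% fell, and of those with a mean of at least 20 CPM 27.3% and 20.9%. Of the 13, 5 rose (38.5%), 3 fell (23.1%) and 5 did not pass, with a median log2 fold change of 0.01. Without WT replicate 1, 1 rose, without WT replicate 2, 2 rose, and without KO replicate 2, 8 rose with a median of 0.23, while without KO replicate 1, 6 fell. Together the 13 took 8.16% and 8.48% of counts in WT and 9.68% and 8.81% in KO, and the nuclear subunits 0.720% and 0.739% in WT and 0.846% and 0.867% in KO. Both shares were higher in both KO libraries. Without the 20 most abundant nuclear genes the mitochondrial share was 11.04% and 11.46% in WT and 12.43% and 11.47% in KO. In that setting KO replicate 2 was level with WT replicate 2. The ratio of mitochondrially to nuclear-encoded subunit counts was 11.3 and 11.5 in WT and 11.5 and 10.2 in KO, so that the groups overlapped. Ribosomal RNA of the mitochondrion had 24793 and 26491 counts in WT and 20109 and 17480 in KO.

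The 5 genes that rose were, with mt-Nd1, the most abundant per kilobase. Mt-Co1, the catalytic subunit of complex IV, held 46.3% to 49.2% of all mitochondrial coding counts, with 37800 and 38400 CPM in WT and 47210 and 44400 in KO. This was a log2 fold change of 0.27 (SE 0.04, adjusted p = 5.73e-05). Mt-Cytb, the only mitochondrially encoded subunit of complex III, had 12260 and 12930 CPM in WT and 16010 and 14790 in KO, a log2 fold change of 0.29 (SE 0.05, adjusted p = 0.000139). Of the complex I subunits, which pump protons in the membrane arm, mt-Nd2 rose by 0.22 (SE 0.05, adjusted p = 0.00287), mt-Nd4 by 0.23 (SE 0.07, adjusted p = 0.0140; 0.094 to 0.359 with a library left out) and mt-Nd5 by 0.28 (SE 0.06, adjusted p = 0.00253). In all 5 genes both KO libraries lay above both WT libraries, and KO replicate 1 was the higher. Mt-Nd1, with 8037 and 8050 CPM in WT and 8603 and 7523 in KO, and mt-Nd6, the only subunit gene on the other strand, with 1349 and 1398 against 1790 and 1342, did not pass.

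**Figure D3:**
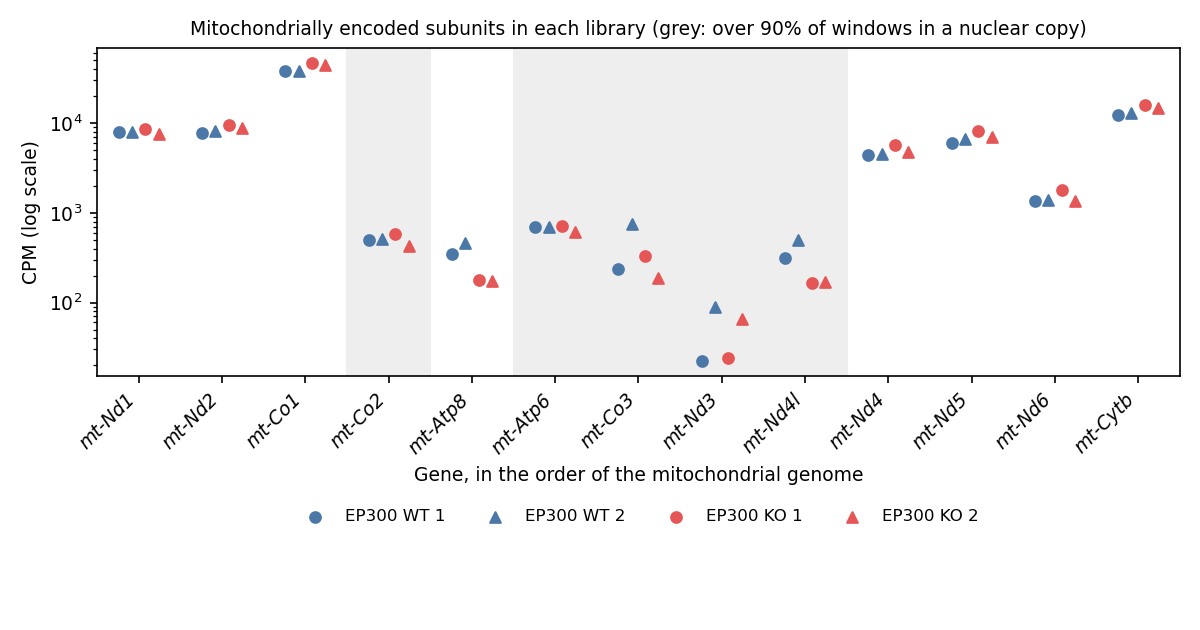
CPM (y axis, log scale) of the 13 mitochondrially encoded subunits in each library (blue WT, red KO; circles replicate 1, triangles replicate 2), in their order along the mitochondrial genome; grey bands mark genes with over 90% of 50-base windows in a nuclear copy. KO lies above WT in both libraries of mt-Nd2, mt-Co1, mt-Nd4, mt-Nd5 and mt-Cytb and below it in mt-Atp8 and mt-Nd4l, and the points of mt-Co3 and mt-Nd3 split by library more than by group.

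The 3 genes that fell lie in the block from mt-Co2 to mt-Nd4l, where levels were low. Mt-Atp8, a short membrane subunit of complex V, had 346.9 and 461.1 CPM in WT and 180.5 and 174.7 in KO, a log2 fold change of -1.19 (SE 0.09, adjusted p = 7.96e-08). Mt-Nd4l, a short complex I subunit, had 317.5 and 493.8 CPM in WT and 166.9 and 170.4 in KO, a log2 fold change of -1.27 (SE 0.13, adjusted p = 1.57e-06). In both genes the KO libraries lay below both WT libraries. Among all tested genes 8.87% fell by at least 1.5-fold.

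Both genes overlap the gene that follows them on the same precursor, and their sequences are shown because these shared bases limit how reads can be assigned. They are the GENCODE M21 transcripts on GRCm38, with the bases also inside mt-Atp6 (43 bases) or mt-Nd4 (7 bases) in capitals.
mt-Atp8, chrM:7766-7969, plus strand: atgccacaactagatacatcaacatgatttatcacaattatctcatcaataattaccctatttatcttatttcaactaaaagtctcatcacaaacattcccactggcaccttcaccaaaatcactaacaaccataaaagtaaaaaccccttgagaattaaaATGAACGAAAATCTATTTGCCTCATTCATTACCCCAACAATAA
mt-Nd4l, chrM:9877-10173, plus strand: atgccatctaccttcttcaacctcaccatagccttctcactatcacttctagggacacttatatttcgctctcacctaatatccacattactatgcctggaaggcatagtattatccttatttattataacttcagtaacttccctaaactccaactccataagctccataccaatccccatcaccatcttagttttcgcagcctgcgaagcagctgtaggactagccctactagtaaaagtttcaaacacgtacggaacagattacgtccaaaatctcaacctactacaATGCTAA

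In counts, their neighbours did not follow them. Mt-Atp8 and mt-Nd4l are short, at 204 and 297 bases. Whether their falls reflect RNA level or read assignment was not tested. Mt-Atp6, which shares the 43 bases with mt-Atp8, had 700.4 and 702.7 CPM in WT and 705.2 and 606.0 in KO (log2 fold change -0.10, adjusted p = 0.272), and mt-Nd4 rose. Mt-Co2, the copper-binding subunit of complex IV, had 495.7 and 508.4 CPM in WT and 587.5 and 425.9 in KO and was not called.

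Mt-Co3 and mt-Nd3 varied more within a group than between groups. Mt-Co3, the third core subunit of complex IV, had 4546 and 14611 counts in WT and 5685 and 3235 in KO. Its log2 fold change of -0.96 (SE 0.34, adjusted p = 0.0384) passed the test although the groups overlapped, but without WT replicate 2 it was 0.12 and neither DESeq2 nor limma-voom called it. Mt-Nd3 had 428 and 1733 counts in WT and 416 and 1132 in KO, with a log2 fold change of -0.34 (SE 0.43, adjusted p = 0.593). The call for mt-Co3 thus rests on WT replicate 2.

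All genes of this block except mt-Atp8 have over 90% of their windows in an annotated nuclear copy. A row of 7 annotated pseudogenes on chromosome 1 (chr1:24611535-24616197, 4663 bases) copies the stretch of the mitochondrial genome from within mt-Co1 to within mt-Nd4. At least 98.0% of 50-base windows of mt-Co2 (100%), mt-Co3 (99.9%), mt-Atp6 (99.5%), mt-Nd4l (98.8%) and mt-Nd3 (98.0%) also occur in another annotated gene, against 62.2% in mt-Nd4, 51.1% in mt-Co1, 8.19% in mt-Nd2, 7.61% in mt-Nd5 and 0% in mt-Nd1, mt-Nd6, mt-Cytb and mt-Atp8. No gene is annotated in the part of the copy between 24614652 and 24614884, between the copies of mt-Co2 and mt-Atp6. In the mitochondrial genome mt-Atp8 starts at 7766, between the end of mt-Co2 (7696) and the start of mt-Atp6 (7927). Whether the unannotated part holds mt-Atp8 sequence was not tested, since no genome sequence was used. The 0% of mt-Atp8 covers annotated genes only and may be too low. The pseudogenes had 10904 and 15614 summed counts in WT and 9318 and 10112 in KO. Reads that match both places may be dropped or assigned to either, and the levels and folds of these genes need not be those of the mitochondrial RNA alone.

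Levels per kilobase of exon are set beside the shared percent, which covers annotated genes only and may be too low for mt-Atp8. The 5 genes over 90% shared had 162 (mt-Nd3) to 1366 (mt-Nd4l) CPM per kilobase in WT, and the other 8 from 1980 (mt-Atp8) and 2646 (mt-Nd6), both at 0% shared, to 11010 (mt-Cytb, 0%) and 24660 (mt-Co1, 51.1%). None of the 5 rose and 2 fell, with a median log2 fold change of -0.34. Of the 6 genes under 10% shared, 3 rose and 1 fell, with a median of 0.20. Their library medians were 0.317 in KO replicate 1 and 0.057 in KO replicate 2. The 1 that fell was mt-Atp8, whose place in this group is uncertain. Of all tested genes 16.7% rose and 17.5% fell. Mt-Co1 and mt-Nd4, shared in part, both rose. The part of the shared sequence in these differences was not tested.

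**Figure D4:**
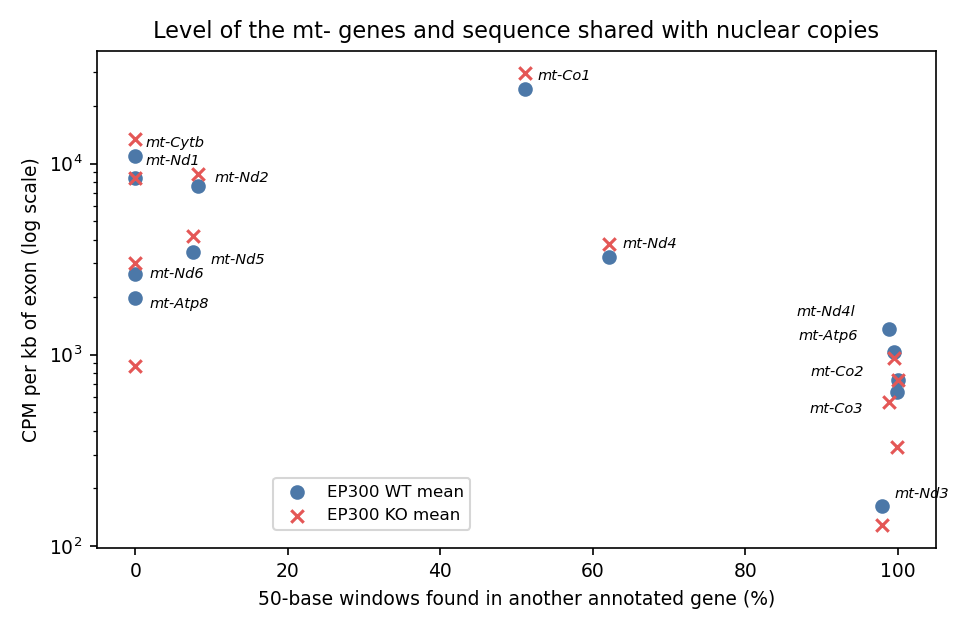
Mean CPM per kilobase of exon (y axis, log scale; blue circles WT, red crosses KO, 2 libraries each) of the 13 mitochondrially encoded genes against the percent of their 50-base windows found in another annotated gene (x axis). The 5 genes at 98.0% or more sit between 162 and 1366 in WT, below all genes at 62.2% or less.

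Genes that serve the chain without being members were taken as 7 lists. Over all tested genes 16.7% rose and 17.5% fell, and among genes with a mean of at least 20 CPM 27.3% rose and 20.9% fell. Among 45 other assembly factors 12 rose (26.7%) and 1 fell, with a median of 0.18. Dmac2, for complex I, rose by 0.60 (SE 0.10, adjusted p = 0.000158) and Foxred1, also for complex I, by 0.56 (SE 0.09, adjusted p = 8.85e-05). Of 14 genes for cytochrome c and coenzyme Q, 5 rose and 1 fell (median 0.18). Coq10b, a coenzyme Q binding protein, rose by 0.69 (SE 0.08, adjusted p = 6.38e-06) and Coq8b, an atypical kinase of coenzyme Q synthesis, fell by 0.54 on the log2 scale. Cycs, cytochrome c itself, had 51.9 and 58.4 CPM in WT and 75.1 and 78.9 in KO, a log2 fold change of 0.48.

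In the tricarboxylic acid cycle and pyruvate dehydrogenase, which supply the electrons, 12 of 19 genes rose and 1 fell, with a median of 0.24. Pdhx, the binding protein of pyruvate dehydrogenase, had 14.9 and 13.5 CPM in WT and 26.9 and 24.9 in KO. This was a log2 fold change of 0.87 (SE 0.10, adjusted p = 6.04e-06), and Pdhb rose by 0.56. Of the same complex, Pdha1 (-0.10, adjusted p = 0.294) and Dlat (-0.03, adjusted p = 0.827) were not called. Idh2, the NADP-dependent isocitrate dehydrogenase, was the 1 gene that fell (-0.48, adjusted p = 8.87e-05). For exchange of adenine nucleotides and phosphate and for uncoupling, 6 of 11 genes rose and 0 fell (median 0.15). Slc25a4, an ADP/ATP carrier, rose by 0.67 (17.38 and 17.46 CPM in WT, 23.55 and 31.96 in KO), and Slc25a42, a coenzyme A carrier, by 0.58. Slc25a5, another ADP/ATP carrier, had 360.1 and 365.3 CPM in WT and 348.7 and 367.2 in KO (-0.02, adjusted p = 0.827).

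The mitochondrial ribosome, which translates the 13 subunits, had 12 of 77 genes that rose and 3 that fell, close to the 16.7% of all genes that rose, with a median of 0.11. Mrpl18 had the largest rise there, 0.57 (SE 0.08, adjusted p = 5.98e-05), followed by Mrpl39 at 0.43 (SE 0.09, adjusted p = 0.00171), whose call was lost without either WT library. Of 27 genes for mitochondrial DNA and RNA upkeep 7 rose (25.9%) and 0 fell, with a median of 0.20. By comparison, 16.7% of all tested genes rose, and 27.3% of those with a mean of at least 20 CPM. Supv3l1, an RNA helicase of the mitochondrial degradosome, rose by 0.58 (SE 0.12, adjusted p = 0.00177) and Grsf1, which binds mitochondrial RNA, by 0.53 (SE 0.08, adjusted p = 6.34e-05).

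Among 14 nuclear regulators 6 rose and 2 fell, with a median of 0.12. Ppargc1b, a coactivator of mitochondrial genes, had 5.32 and 4.0 CPM in WT and 13.2 and 11.4 in KO, a log2 fold change of 1.40 (SE 0.16, adjusted p = 6.47e-06). Its relative Ppargc1a moved the other way, with 19.4 and 18.9 CPM in WT and 15.1 and 12.3 in KO (-0.48, SE 0.12, adjusted p = 0.00404). Esrra, the receptor of the ERRA motif, rose by 0.40 (SE 0.08, adjusted p = 0.000759), and Esrrg, a related receptor, had 5 and 3 counts in WT and 32 and 24 in KO, a log2 fold change of 2.91 (SE 0.49, adjusted p = 0.000236). Esrrg was kept by the low-count filter through its KO libraries only, and its fold rests on few counts. Nrip1, a corepressor of such genes, fell by 0.58 on the log2 scale. Without WT replicate 1 the called genes numbered 4 among the other assembly factors, 2 for DNA and RNA upkeep, 4 among the regulators and 5 in the ribosome, and without WT replicate 2 they numbered 5 assembly factors, 2 for upkeep, 3 for exchange and 4 in the ribosome.

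**Figure D5:**
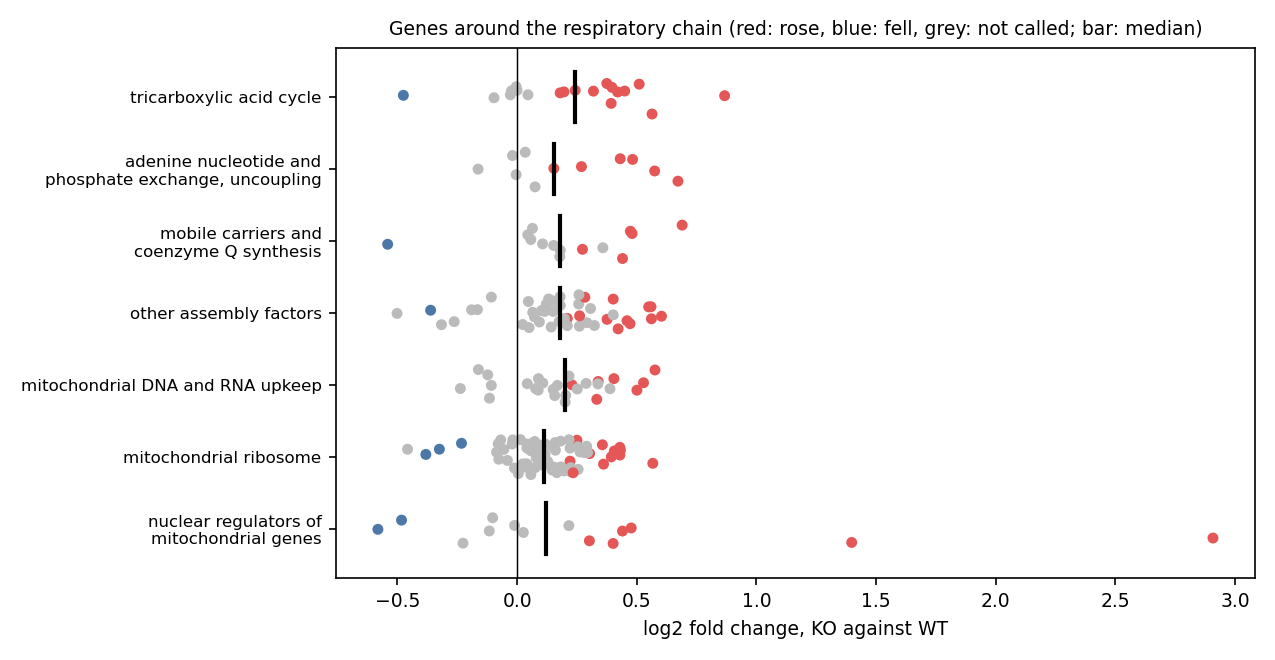
Log2 fold change (x axis, KO against WT) of tested genes in 7 lists around the respiratory chain (rows; points scattered vertically for legibility); red rose, blue fell, grey did not pass, and the bar marks the median. Medians lie between 0.11 for the mitochondrial ribosome and 0.24 for the tricarboxylic acid cycle, and Esrrg at 2.91 (5 and 3 counts in WT) and Ppargc1b at 1.40 stand to the right of all other points.

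Markers of cell types also differed between the labels. Beside their counts, 16.7% of all tested genes rose and 17.5% fell. All 8 proliferation genes fell, with a median log2 fold change of -1.86 and summed CPM of 36.2 and 37.0 in WT and 10.3 and 10.6 in KO. Of endothelial markers 5 of 8 fell and 0 rose (summed CPM 285.7 and 280.8 against 240.7 and 215.0), and of stellate and fibroblast markers 5 of 9 fell and 0 rose (293.7 and 284.5 against 188.5 and 181.3). Much of the latter difference was Reln, at 118.9 and 112.9 CPM in WT and 30.9 and 32.9 in KO, while Dcn was at -0.01 (adjusted p = 0.918). Hepatocyte markers had 6 of 11 that rose and 3 that fell, with summed CPM of 115000 and 114200 in WT and 107400 and 110500 in KO. Macrophage markers had 3 of 9 that rose and 2 that fell, with summed CPM of 801.3 and 797.4 in WT and 704.9 and 720.5 in KO. Of 5 biliary markers tested 1 rose (Cldn4, by 1.28) and 2 fell (Spp1 and Sox9, by 0.40 and 0.78). The biliary list summed to 141.9 and 142.8 CPM in WT and 111.3 and 112.2 in KO. Most of it was Spp1 (125.8 and 127.6 against 95.6 and 95.8), with Krt19, Krt7 and Epcam below 2 CPM. Of 4 neutrophil markers tested 2 fell (S100a9 and Csf3r) and 0 rose. Their list was low, with summed CPM of 14.7 and 16.6 in WT and 12.6 and 9.94 in KO, and Ly6g was at 0 in 2 libraries. Of lymphocyte markers only Ptprc was tested and fell, and the T and B cell genes lay below 0.32 CPM. Of 4 erythroid markers tested 2 rose, Alas2 and Klf1, and the summed CPM went from 13.1 and 12.7 in WT to 57.6 and 53.2 in KO, mostly Alas2, a heme synthesis enzyme, with Hbb-bs at most 3.24 CPM. In sorted bulk samples, fewer cells of a type and less RNA per cell cannot be told apart, and the part of these differences in the rise of the respiratory chain genes was not tested.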

How the data were processed

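RNA-seq counts of 4 libraries were used. Raw counts of reads for each gene were deposited by the authors in 1 table; 4 of its columns match no sample and were not used here, nor were the diet libraries, which are in other tables. STAR, HTSeq, DESeq2 and mm10 are named in the submitters' processing notes; roles, annotation, strand setting and the handling of multiply mapped reads are not given in the sources used here. Per the labels, a TruSeq RNA kit was used, which was taken here not to mark strand.

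Symbols, coordinates and merged exon lengths came from GENCODE M21 (GRCm38) and matched 55144 of 55385 identifiers. Counts were tested with edgeR 4.0.16 in R 4.3.3: TMM scaling, genes kept by filterByExpr at a minimum count of 10, a quasi-likelihood F test with group as the only term, 2 residual degrees of freedom, and Benjamini-Hochberg adjustment over all 14200 genes with a threshold of 0.05. Each SE was obtained as |log2 fold change| over the square root of its F value. CPM computed from the deposited counts use the TMM-scaled library size, and levels are compared between genes only per kilobase of exon. "Rose" and "fell" mean an adjusted p below 0.05. The common biological coefficient of variation was 5.47%. No 2 libraries of a label agreed within sampling noise (chi-square per degree of freedom 2.72 in WT and 5.96 in KO). On simulated counts for this comparison (14200 genes), 62%, 84%, 98% and 100% of 50 genes changed 1.5, 2, 4 and 8-fold were recovered, with 12 false calls. Changes under 1.5-fold, where nearly all members lie, were not simulated. Nor was a share of changed genes as large as the share called here.

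Members and lists were chosen with earlier results of these data known, so no list was tested. The text names all mt- genes and, for each complex, the 3 largest called rises and falls among nuclear subunits, all Sdh genes, up to 3 called Ndufaf genes, isoform pairs, and 2 called genes in each pathway list. Others, such as Ndufv1, Ndufa7, Ndufa8, Atp5b, Atp5g1 to Atp5g3, Uqcr10, Uqcrq, Cycs, Idh2, Pdha1, Dlat, Slc25a5, Esrra, Nrip1 and Ppargc1a, were chosen after their values were seen, as were the limit of 20 CPM and the split by shared windows. Of the listed genes, Coa1 and Fastkd4 were not found. Alternatives were DESeq2 1.42.0, limma-voom (limma 3.58.1), other scalings and filters, a 1.5-fold limit, a replicate block and each library left out.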

Additional observations from a re-analysis of the deposited data

How the results depend on the processing

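Of the 60 called members, 49 were called by DESeq2, 59 by limma-voom, 60 with RLE size factors, 47 with library size alone, 60 with scaling that ignored the mt- genes and 38 with no low-count filter, and none of the 60 changed sign under these settings. The median of all genes was -0.07 with library size alone and within 0.01 of 0 otherwise. With library size alone the median log2 fold changes were 0.211, 0.297, 0.127, 0.138 and 0.219 for complexes I to V and 0.195 for all nuclear subunits, 2 nuclear members fell, and 4 genes of mitochondrial DNA and RNA upkeep were called. With no low-count filter 2703 genes were called (1416 rose, 1287 fell), with 38 members called and 35 that rose (34 and 33 nuclear, 4 and 2 mitochondrial), and 6 other assembly factors, 3 exchange genes and 5 ribosomal genes called. DESeq2 gave 1614 genes that fell, and called 6 other assembly factors and 6 ribosomal genes. Asking for 1.5-fold left 4 members called, 1 of which rose, and leaving out short mt- genes left 2 that fell. Without the 20 most abundant nuclear genes the mt- share averaged 11.25% in WT and 11.95% in KO, with KO replicate 2 (11.47%) level with WT replicate 2 (11.46%).

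Leaving out each library in turn gave 2306 to 5154 genes called (1160 to 2574 rose, 1146 to 2580 fell), 29 to 74 members (25 to 67 rose, 2 to 7 fell), 25 to 62 nuclear members (24 to 61 rose, 0 to 3 fell) and 4 to 12 mitochondrial genes (1 to 8 rose, 2 to 6 fell). The medians were 0.258 to 0.329, 0.347 to 0.400, 0.206 to 0.254, 0.162 to 0.273 and 0.254 to 0.318 for complexes I to V, 0.235 to 0.312 for the nuclear subunits and -0.022 to 0.232 for the mitochondrial genes. Called genes ranged from 4 to 15 for other assembly factors, 4 to 6 for coenzyme Q and cytochrome c, 2 to 8 for upkeep, 4 to 10 for regulators, 9 to 13 for the cycle, 3 to 6 for exchange and 4 to 20 for the ribosome. The log2 fold change crossed 0, ranging from -0.085 to 0.102 for mt-Nd1, -1.224 to 0.996 for mt-Nd3 (0.217 without KO replicate 1), -0.226 to 0.232 for mt-Co2 and -1.555 to 0.116 for mt-Co3, and also for the uncalled mt-Nd6 (-0.022 to 0.387) and mt-Atp6 (-0.200 to 0.012); for the called mt-Nd4 it was 0.094 to 0.359 and for mt-Nd5 0.170 to 0.388. Without KO replicate 1 the first 3 turned sign, and without WT replicate 2 mt-Nd3 and mt-Co3 did; the cause was not tested.

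No label says that replicate numbers pair the libraries. The difference between replicates 1 and 2 correlated between the groups at 0.004 over 14200 genes, 0.223 over the 101 members and 0.478 over the 13 mitochondrially encoded genes. With the replicate block 67 members were called, including all 60. Cox7a1 and Ndufa4l2 have counts near the limit of the count rule, and their log2 fold changes have SEs of 0.48 and 0.43.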
